A study of Rattus norvegicus with 15 samples.

Results

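The genes described here are those by which the enterocyte builds a chylomicron: the apolipoprotein genes Apoa1, Apoa4, Apob, Apoc2 and Apoc3, the lipid transfer gene Mttp, the acyltransferase genes Mogat2, Dgat1 and Dgat2, and the editing enzyme gene Apobec1. Every probe on the rat Agilent array that carried one of these 10 gene names was taken, each probe apart, which gave 20 probes of 41012 outside the controls. All 20 were well above background on all 15 arrays and were among the 27892 probes tested. Expression was measured by 1-colour hybridisation in intestinal tissue from male rats, with 5 arrays in each of 3 groups and each array carrying the RNA of a separate sample. GK-S-30 were Goto-Kakizaki (GK) rats, a nonobese strain bred from Wistar that inherits type 2 diabetes, which had undergone Roux-en-Y gastric bypass (RYGB) with a Roux limb (RL) of 30 cm, and the tissue was a piece of the RL below its join to the stomach. GK-Sham-PF were GK rats whose jejunum was cut 16 cm from the ligament of Treitz and closed again, and which were then pair-fed. Wistar were nondiabetic rats with no operation. Both GK groups were operated on at 16 wk of age, and tissue was taken 14 wk postoperation after a fast, from the matching stretch of jejunum in the controls. GK-Sham-PF against Wistar therefore compares strain together with the sham operation and feeding. GK-S-30 against GK-Sham-PF compares the operations within the strain, together with the pair-feeding of the sham group alone. No group of GK rats without an operation and none of operated Wistar rats was analysed here.

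In the fed intestine, absorbed monoacylglycerol and fatty acid are built back into triglyceride at the endoplasmic reticulum. MOGAT2 makes diacylglycerol from monoacylglycerol, and DGAT1 and DGAT2, which are unrelated in sequence, each add the last acyl chain. Microsomal triglyceride transfer protein, the product of Mttp, loads lipid onto apolipoprotein B as it is made, and the particle leaves in a large coated vesicle. APOBEC1 edits the Apob transcript so that the intestine makes the short form of the protein, although rat liver also edits. ApoA-I and apoA-IV join the particle at its surface, apoC-II activates lipoprotein lipase in the circulation, and apoC-III inhibits it and slows clearance.

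Some probes of the called genes are shown as the array files give them, each being 60 bases long, where the sequence bears on whether the probes of a gene can be read apart. Both Apoc3 probes are printed because they share a stretch of 19 bases, in capitals, at the start of probe 1 and the end of probe 2, so that they do not measure Apoc3 at separate sites. The files gave no position for either.
Apoc3 probe 1: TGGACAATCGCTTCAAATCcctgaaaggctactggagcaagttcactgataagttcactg
Apoc3 probe 2: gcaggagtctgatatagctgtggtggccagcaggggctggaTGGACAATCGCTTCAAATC

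The Dgat2 probes are shown because they lay apart in the gene and gave like results. A probe of Mttp is shown because it had more spread than its partner and was not called. The files placed these probes on the minus strand of rn4, Dgat2 probe 2 at chr1:156450786-156450845, Dgat2 probe 3 at chr1:156459399-156459458 and Mttp probe 2 at chr2:235626374-235626433. Dgat2 probe 1 lay at chr1:156447836-156447895 on the same strand. The files do not say which exon each probe lies in.
Dgat2 probe 2: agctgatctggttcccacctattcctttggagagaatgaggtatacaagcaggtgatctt
Dgat2 probe 3: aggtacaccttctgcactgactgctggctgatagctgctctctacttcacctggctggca
Mttp probe 2: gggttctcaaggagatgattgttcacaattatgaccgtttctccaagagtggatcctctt

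The tissue carried the markers of the intestinal epithelium. Fabp2, the intestinal fatty acid binding protein, was 17.92 to 18.06 in Wistar, 17.68 to 17.92 in GK-Sham-PF and 17.66 to 17.77 in GK-S-30, on the scale used throughout, which is log2 of the quantile-normalized processed signal. The mean over 12 enterocyte and epithelial markers was 14.44 for Wistar, 14.41 for GK-Sham-PF and 14.37 for GK-S-30. The lowest array of each group was Wistar replicate 3 at 14.07, GK-Sham-PF replicate 5 at 14.05 and GK-S-30 replicate 1 at 14.11. None of the 12 passed the test between the GK groups or between GK-Sham-PF and Wistar. Between GK-S-30 and Wistar 3 of the 12 passed, a share near the 22.8% of all tested probes called in that comparison. Krt18 and Cdx1 were higher by 0.32 and 0.26 and Fabp2 was lower by a log2 difference of -0.28 (limma adjusted p = 0.0164, 0.0439 and 0.0208). Their part in the member differences from Wistar was not tested. Markers of the muscle wall differed: the mean over 9 smooth muscle genes was 11.24 to 11.94 in Wistar, 11.05 to 12.13 in GK-Sham-PF and 12.48 to 12.83 in GK-S-30. Of the 9, 5 were higher after RYGB than after the sham operation, beside 3.9% of all tested probes. The high GK-Sham-PF array was replicate 4. For 6 fibroblast genes the group means were 10.84, 10.85 and 11.29, and 4 of 6 were again higher after RYGB than after the sham operation, beside the same 3.9%. These markers moved with every difference of GK-S-30 given here, and their part in the results was not tested. The arrays came from 4 slides, and each slide held 1 or 2 of the groups: 4 Wistar arrays, 1 Wistar with 3 GK-Sham-PF, 2 GK-Sham-PF with 2 GK-S-30, and 3 GK-S-30. The slide was also scanned as a unit, so slide and scan cannot be told apart. The dimmest arrays were replicate 3 of Wistar and replicate 5 of GK-Sham-PF, with a 75th percentile of processed signal of 225 and 224, where the other arrays had 329 to 384.

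Between the operations in GK rats, 4 of the 10 genes were lower in the RL after RYGB: Apoc3, Apoc2, Dgat2 and Mttp. The largest differences were those of Apoc3, whose probes stood in GK-S-30 at 44.7% and 45.8% of GK-Sham-PF. In all, 6 of the 20 probes passed the threshold, an adjusted p of 0.05 over all tested probes in limma, and all 6 were lower, where 6.7% of all tested probes passed in either direction, 2.8% lower and 3.9% higher. For 5 of the 20 probes every GK-S-30 array lay below every GK-Sham-PF array, which was so for 3.47% of all tested probes. No member probe was called higher. With the slide as a block none of the 20 passed. The median log2 difference was -0.17 over the 20 probes and -0.03 over all tested probes, and 18 of the 20 estimates were below 0.

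Between GK-Sham-PF and Wistar only Dgat2 differed past the threshold. Of the 20 probes, 2 were called, both lower in GK-Sham-PF and both of Dgat2, beside 7.83% of all tested probes called in either direction, 4.22% lower and 3.61% higher. The count was 0 without any 1 of Wistar replicates 1, 4 and 5 and GK-Sham-PF replicates 3 and 4, and 0 with the slide as a block. The arrays did not overlap for 1 probe, against 4.67% of all tested probes that were lower without overlap. The median log2 difference over the members was -0.15, and over all probes -0.00.

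GK-S-30 and Wistar stood furthest apart: 9 of the 20 probes, from Apoc3, Apoc2, Mttp, Dgat1, Dgat2 and Apobec1, were lower in GK-S-30 and none was higher. The count was 5 without Wistar replicate 5 or without GK-S-30 replicate 5, and 0 with the slide as a block. In this comparison 22.8% of all tested probes were called in either direction, 11.8% lower and 10.9% higher. For 7 member probes the arrays did not overlap, against 9.23% of all tested probes lower without overlap. The median log2 difference over the members was -0.50, and 19 of 20 estimates were below 0. The 3 comparisons share arrays and are not independent of each other.

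**Figure D1:**
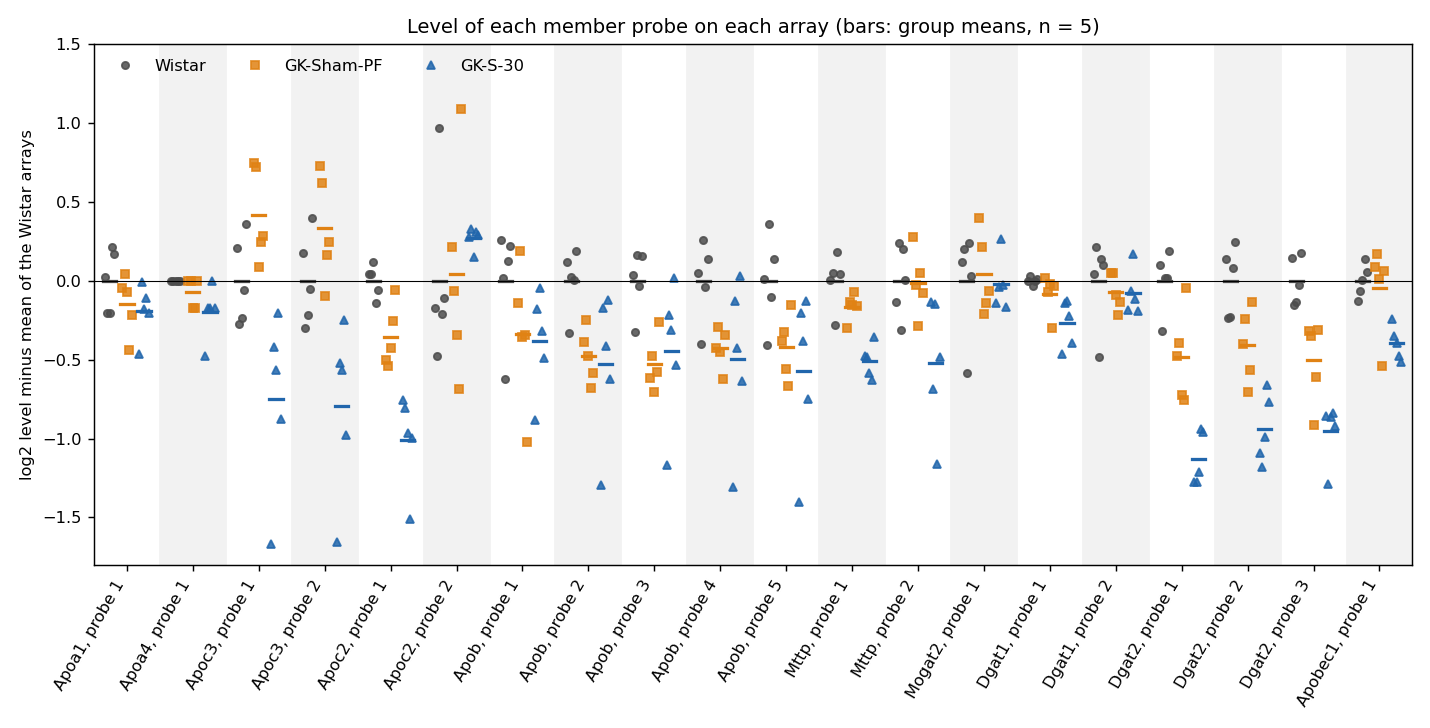
Level of each of the 20 probes on each of the 15 arrays, as log2 normalized signal minus the Wistar mean of that probe, with points for arrays and bars for group means. The Apoc3, Apoc2 probe 1, Dgat2 and Mttp probe 1 values of GK-S-30 lie lowest, and the Apob, Apoa1 and Mogat2 groups overlap between the GK rats.

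Apoc3, the inhibitor of lipoprotein lipase, showed the largest fall of the members between the operations, though not against Wistar. On probe 1 the 5 Wistar arrays were at 15.79, 15.31, 15.35, 15.53 and 15.94 (log2), the GK-Sham-PF arrays at 16.33, 16.30, 15.67, 15.83 and 15.86, and the GK-S-30 arrays at 13.92, 15.16, 15.02, 15.38 and 14.70. Every GK-S-30 array was below every GK-Sham-PF array, while the highest GK-S-30 array overlapped with Wistar, and replicate 1 of GK-S-30 was well below the rest of its group. The log2 difference between the operations was -1.16 ± 0.24 (SE, n = 5 and 5, limma adjusted p = 0.00876). Probe 2, which overlaps probe 1, gave -1.13 ± 0.24 (limma adjusted p = 0.0110). In whole tissue such a difference cannot tell fewer cells of a type from less RNA in each cell. GK-Sham-PF was above Wistar by 0.41 on probe 1, with a 95% interval of -0.09 to 0.92 that includes 0 (limma adjusted p = 0.383). Against Wistar, GK-S-30 stood at 59.6% on probe 1 (limma adjusted p = 0.0327) and 57.7% on probe 2 (0.0253). Without GK-S-30 replicate 1 the difference from GK-Sham-PF was -0.93 and still passed, whereas that from Wistar fell to -0.52 on probe 1 and -0.58 on probe 2, and the largest adjusted p over the arrays left out in turn was 0.0814 and 0.0657.

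Apoc2, the activator of the same lipase, fell in the same comparison, and its SD was 0.10 for Wistar, 0.20 for GK-Sham-PF and 0.30 for GK-S-30. Probe 1, at chr1:78979140-78979199 of rn4 on the minus strand, read 15.88, 15.87, 15.95, 15.69 and 15.77 in Wistar, then 15.33, 15.29, 15.40, 15.57 and 15.78 in GK-Sham-PF, and 15.08, 15.03, 14.86, 14.32 and 14.83 in GK-S-30. The GK-S-30 arrays were below all others, and the GK-Sham-PF and Wistar arrays overlapped only through GK-Sham-PF replicate 5. GK-S-30 was at 63.7% of GK-Sham-PF (log2 difference -0.65 ± 0.14, limma adjusted p = 0.0112) and at 49.7% of Wistar (-1.01 ± 0.14, limma adjusted p = 9.08e-05). GK-Sham-PF minus Wistar was -0.36 (limma adjusted p = 0.154). Both calls of GK-S-30 held with each of the 15 arrays left out in turn. Probe 2 carried the same gene name but was designed to an expressed sequence tag and lay on the plus strand, at chr1:78979041-78979100, opposite to the gene. It was dim, between 3.47 and 5.24 on all arrays, and did not differ past the threshold in any comparison.

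The activator and the inhibitor were set against each other within an array. Apoc2 minus Apoc3, by the brightest probe of each, was 0.25 ± 0.33 (SD, n = 5) for Wistar, -0.52 ± 0.45 for GK-Sham-PF and -0.01 ± 0.80 for GK-S-30. The difference of -0.77 between GK-Sham-PF and Wistar had an exact two-sided permutation p of 0.0159, adjusted over the 9 such tests to 0.0476. It lost that call, at 0.0536, when the authors' normalized values were used, and also with normexp, without the dim arrays and without GK-Sham-PF replicate 4 and GK-S-30 replicate 1. With arrays left out in turn it passed in 2 of 15 tests, which have fewer divisions of the arrays, at -0.88 to -0.65. GK-S-30 did not differ from GK-Sham-PF (0.51, adjusted exact permutation p = 0.371) or from Wistar (-0.26, adjusted exact permutation p = 0.607) past the threshold, and its arrays ran from -1.06 to 1.16.

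Apoa4 and Apoa1, the apolipoproteins of the particle surface, did not pass the test in any comparison. Apoa4 was the brightest probe of the array on every Wistar array, and its rank in GK-S-30 was 8, 2, 2, 1 and 2 in replicates 1 to 5. Quantile normalization gives the top rank the same value on each array, 18.47, so it limits what can be seen of this probe. The processed signal before normalization was 377925, 355409, 323725, 389364 and 406957 in Wistar, 365450, 373680, 360165, 344475 and 331080 in GK-Sham-PF, and 286459, 374868, 365779, 350654 and 332091 in GK-S-30. The groups overlapped, with GK-S-30 replicate 1 lowest of all, and no spot outside the controls was marked as saturated. The log2 difference between the operations was -0.13, with a 95% interval of -0.33 to 0.06, and that from Wistar was -0.20 (limma adjusted p = 0.473 and 0.133).

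Apoa1 ranked between 9 and 44 on the arrays, so that its level was not held at the top value. It read 17.77, 17.55, 17.55, 17.96 and 17.92 in Wistar, 17.70, 17.79, 17.68, 17.31 and 17.53 in GK-Sham-PF, and 17.29, 17.74, 17.57, 17.64 and 17.55 in GK-S-30. The ranges overlapped throughout, and GK-S-30 differed from GK-Sham-PF by -0.05, with a 95% interval of -0.31 to 0.21. Apoa1, Apoc3, Apoa4 and Apoa5 follow each other on rat chromosome 8 in the RefSeq annotation of GRCr8, so that the called gene of this cluster lies between neighbours that were not called. Of these neighbours Apoa4 was held at or near the top value, so that its missing call shows little. Apoa4 minus Apoa1 within an array could not be read, because Apoa4 was held at the top value on all 5 Wistar arrays and the difference there varied with Apoa1 alone.

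**Figure D2:**
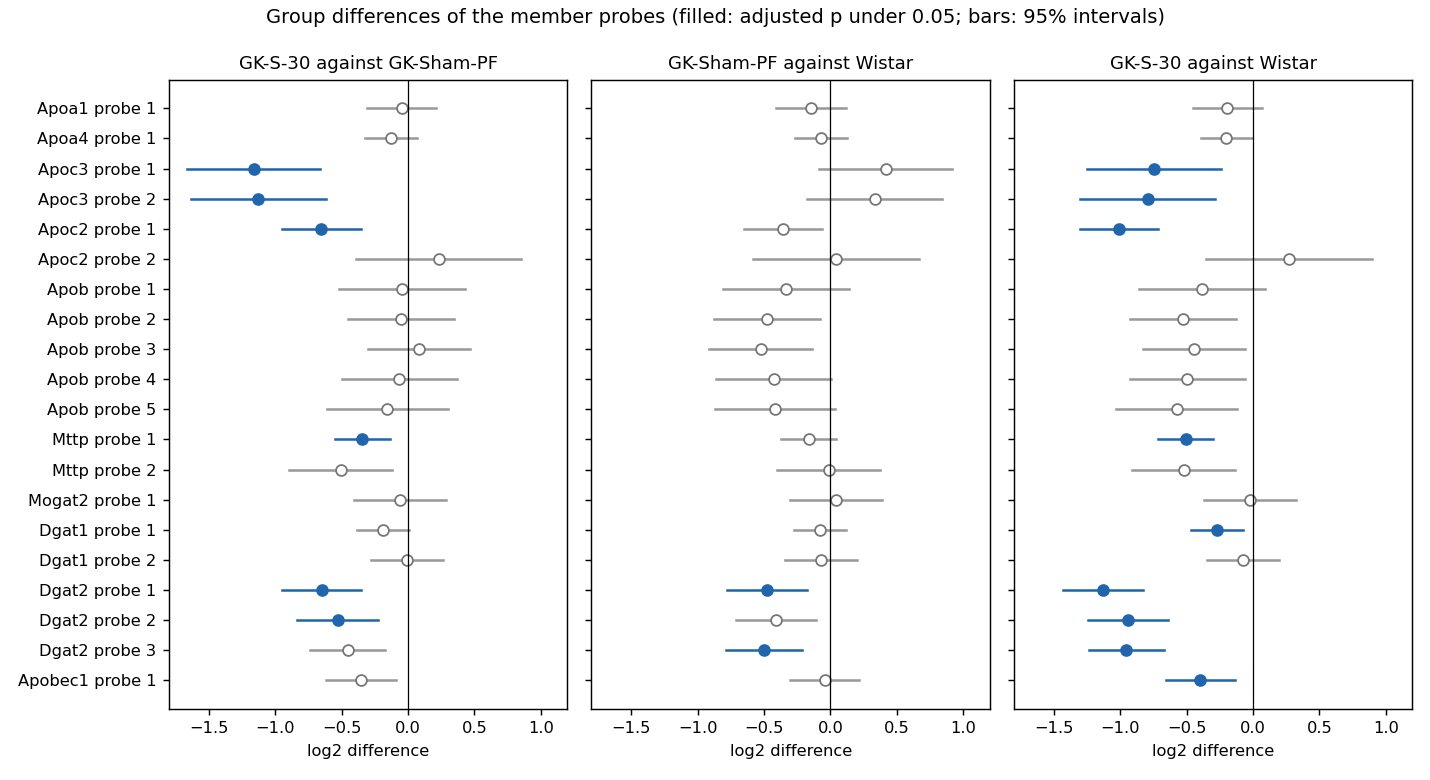
Log2 difference of each probe in the 3 comparisons, with 95% intervals from limma, filled points being those past the threshold. Between the operations the 6 filled points are those of Apoc3, Apoc2 probe 1, Dgat2 probes 1 and 2 and Mttp probe 1, and all lie below 0.

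Apob, which encodes the core protein of the chylomicron, was measured by 5 probes and passed in no comparison. Probe 1 read 16.18, 15.94, 15.30, 16.05 and 16.15 in Wistar, 15.78, 16.11, 15.57, 15.58 and 14.90 in GK-Sham-PF, and 15.04, 15.74, 15.88, 15.60 and 15.43 in GK-S-30. The groups overlapped on this probe. Between the operations the 5 log2 differences ran from -0.16 to 0.08, with limma adjusted p from 0.756 to 0.939. In GK-Sham-PF all 5 probes were below Wistar, by log2 differences of -0.34, -0.48, -0.53, -0.43 and -0.42 for probes 1 to 5, and limma adjusted p was 0.102 to 0.476. In GK-S-30 they were below Wistar by -0.38, -0.53, -0.44, -0.49 and -0.57, with limma adjusted p of 0.0551 to 0.240. The probes read 1 transcript and were not independent, so the like sign of all 5 adds no replicates. GK-S-30 replicate 1 was the lowest GK-S-30 array on each of the 5, as it was for Apoc3, Apoa4 and Apoa1. That array also had the lowest epithelial marker mean of its group, 14.11, and the part of this was not tested.

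Mttp, whose product loads lipid onto apolipoprotein B, was lower after RYGB on probe 1. The arrays were at 14.53, 14.58, 14.24, 14.71 and 14.57 in Wistar, 14.23, 14.39, 14.37, 14.46 and 14.37 in GK-Sham-PF, and 14.05, 14.04, 13.94, 13.89 and 14.17 in GK-S-30. All GK-S-30 arrays were below all arrays of the other groups. The level was 78.9% of GK-Sham-PF (log2 difference -0.34 ± 0.10, limma adjusted p = 0.0454) and 70.4% of Wistar (-0.51 ± 0.10, limma adjusted p = 0.00151). The call against GK-Sham-PF passed in only 3 of the 15 fits that left out an array, with values from -0.38 to -0.31, and that against Wistar passed in all 15. The array annotation placed only 26 of the 60 bases of probe 1 in the genome.

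Mttp probe 2, at a separate site, was dimmer and gave estimates of like size with more spread. It read 9.46, 9.83, 9.28, 9.79 and 9.59 in Wistar, 9.87, 9.56, 9.30, 9.64 and 9.51 in GK-Sham-PF, and 9.46, 8.91, 9.44, 8.43 and 9.11 in GK-S-30. The groups overlapped. GK-S-30 minus GK-Sham-PF was -0.51 ± 0.18 (limma adjusted p = 0.117), and GK-S-30 minus Wistar was -0.52 (limma adjusted p = 0.0515).

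Dgat2, an enzyme of the last step of triglyceride synthesis, was the only member called in all 3 comparisons, and its probes stepped down from Wistar through GK-Sham-PF to GK-S-30. On probe 1 the Wistar arrays were at 15.01, 14.59, 14.93, 14.93 and 15.10, the GK-Sham-PF arrays at 14.43, 14.51, 14.19, 14.15 and 14.87, and the GK-S-30 arrays at 13.64, 13.64, 13.70, 13.97 and 13.95. GK-S-30 did not overlap with either group, and GK-Sham-PF overlapped with Wistar through replicate 5. On probe 3, GK-Sham-PF read 10.06, 10.04, 9.47, 9.78 and 10.07, below all Wistar arrays (10.23 to 10.56) and overlapping GK-S-30 (9.10 to 9.55).

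The Dgat2 level in GK-S-30 was 45.7%, 52.1% and 51.6% of Wistar on probes 1 to 3 (limma adjusted p = 3.92e-05, 0.000219 and 0.000107), and these calls held with each array left out in turn. Against GK-Sham-PF it was 63.7%, 69.3% and 73.0%, with log2 differences of -0.65 ± 0.14, -0.53 ± 0.14 and -0.45 ± 0.13 (SE) and limma adjusted p of 0.0127, 0.0363 and 0.0538, so that probe 3 missed the threshold. GK-Sham-PF itself was below Wistar by -0.48 ± 0.14 on probe 1 and -0.50 ± 0.13 on probe 3 (limma adjusted p = 0.0497 and 0.0294), with -0.41 on probe 2 (0.104). With arrays left out in turn, the step from Wistar to GK-Sham-PF passed in 2 of 15 fits on probe 1 and in 10 of 15 on probe 3. The step between the operations passed in 15 of 15 on probe 1, in 9 of 15 on probe 2 and in 2 of 15 on probe 3.

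Dgat1, whose product catalyses the same reaction, moved less. Probe 1 read 16.17, 16.20, 16.14, 16.17 and 16.18 in Wistar, 16.19, 16.10, 16.16, 15.88 and 16.14 in GK-Sham-PF, and 15.71, 16.03, 16.04, 15.95 and 15.78 in GK-S-30. GK-S-30 lay below every Wistar array and overlapped GK-Sham-PF only through GK-Sham-PF replicate 4. The level was 82.9% of Wistar (log2 difference -0.27 ± 0.09, limma adjusted p = 0.0441), a call that held in 4 of 15 fits without an array, and differed from GK-Sham-PF by -0.19 ± 0.09 (limma adjusted p = 0.258). Probe 2, at another site of the gene, differed by -0.01 from GK-Sham-PF and by -0.08 from Wistar (limma adjusted p = 0.984 and 0.712), so the probes of Dgat1 did not give the same call. Mogat2, the monoacylglycerol acyltransferase and the gene next to Dgat2 on chromosome 1, overlapped in all groups, with 11.01 to 11.84 in Wistar, 11.39 to 12.00 in GK-Sham-PF and 11.44 to 11.86 in GK-S-30. Its log2 difference between the GK groups was -0.06, with a 95% interval of -0.41 to 0.28.

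The unequal change of the DGAT genes was tested within arrays. Dgat1 minus Dgat2, by the brightest probe of each, was 1.26 ± 0.20 (SD, n = 5) for Wistar, 1.66 ± 0.26 for GK-Sham-PF and 2.12 ± 0.24 for GK-S-30. GK-S-30 exceeded GK-Sham-PF by 0.46 (exact two-sided permutation p = 0.0159, adjusted 0.0476) and Wistar by 0.86 (exact permutation p = 0.00794, the smallest that the design allows, adjusted 0.0476). GK-Sham-PF exceeded Wistar by 0.40 (exact permutation p = 0.0238, adjusted 0.0536). The arrays of GK-S-30, at 1.83 to 2.40, did not overlap with those of Wistar, at 1.09 to 1.61. With the authors' normalized values the adjusted exact permutation p was 0.0536 for both calls, and the sizes were 0.46 and 0.86 as here. With arrays left out in turn each call passed in 3 of 15 tests, which have fewer divisions of the arrays, at 0.36 to 0.54 and 0.79 to 0.95.

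**Figure D3:**
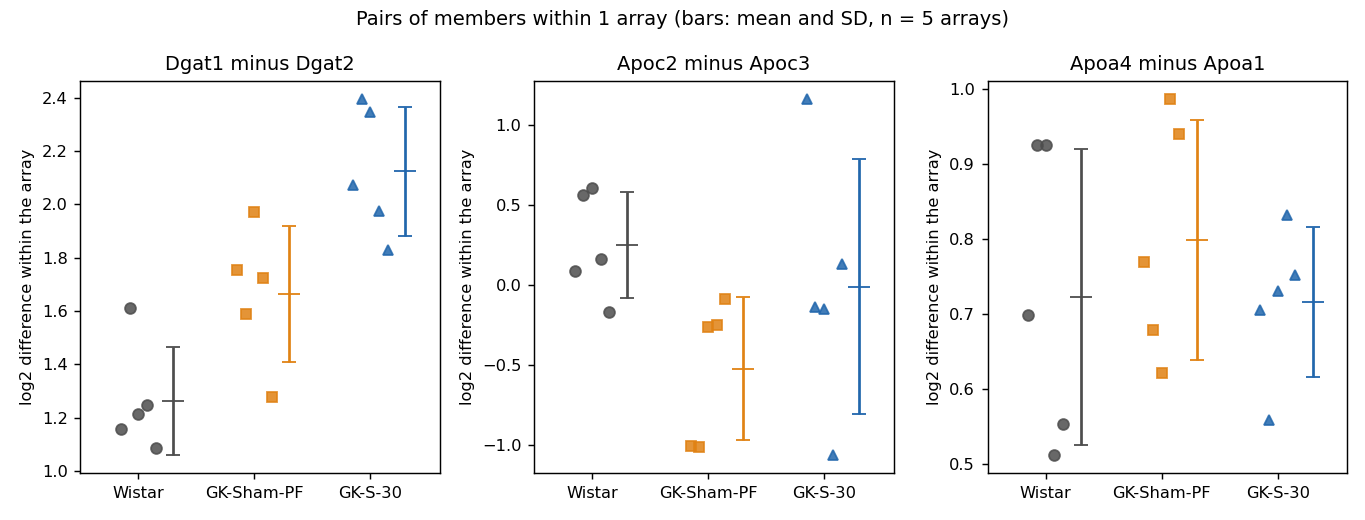
Difference in log2 level between the brightest probes of a pair of genes within each array, for Dgat1 minus Dgat2, Apoc2 minus Apoc3 and Apoa4 minus Apoa1, with points for arrays and the mean and SD of each group. Dgat1 minus Dgat2 steps up from Wistar (1.26) through GK-Sham-PF (1.66) to GK-S-30 (2.12). In the panel of Apoa4 minus Apoa1 the Wistar points are the top value minus Apoa1, since Apoa4 was held there.

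Apobec1, whose product edits the Apob transcript, was called lower in GK-S-30 than in Wistar, but the direction did not hold with the slide as a block. The estimate with the block was smaller than its SE. It read 12.79, 12.85, 12.92, 13.05 and 12.97 in Wistar, 13.00, 13.08, 12.92, 12.37 and 12.98 in GK-Sham-PF, and 12.67, 12.56, 12.52, 12.44 and 12.40 in GK-S-30. GK-S-30 was below all Wistar arrays, and below all GK-Sham-PF arrays but replicate 4, which was the lowest array of all. The level was 75.9% of Wistar (log2 difference -0.40, limma adjusted p = 0.0291) and 78.3% of GK-Sham-PF (-0.35 ± 0.12, limma adjusted p = 0.104). GK-Sham-PF replicate 4 was also the array with the highest smooth muscle mean of its group, and the part of this was not tested. Without that array, 1 of the 15 left out in turn, the difference from GK-Sham-PF was -0.48 and passed, the only 1 of these fits in which it did. The call against Wistar passed in 10 of those 15 fits. With the slide as a block it was lost and the difference turned to 0.16 ± 0.27 (SE), though no slide held both groups. Within the slide of both GK groups, GK-S-30 minus GK-Sham-PF was -0.06. The GK-Sham-PF arrays of that slide were replicate 4, the lowest of all, and replicate 5. The only Wistar array that shared a slide with GK-Sham-PF was replicate 1, the lowest of Wistar at 12.79. The change of sign with the block thus rests largely on these arrays. The arrays measure the amount of Apob and Apobec1 transcript and not whether Apob was edited.

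The calls were then set beside the slides. With the slide as a fixed block the comparison between the GK groups rests on the slide that held 2 arrays of each, and that between GK-Sham-PF and Wistar on the slide with 3 and 1. In this fit 0 of the 20 probes passed in any comparison by limma, where an unadjusted p under 0.05 was found for 7 between the GK groups, for 4 in GK-Sham-PF against Wistar and for 5 in GK-S-30 against Wistar, and the median SE rose from 0.15 to 0.25, 0.29 and 0.38. Of the 6 probes called between the GK groups, GK-S-30 minus GK-Sham-PF within the slide was -1.30 and -1.29 for Apoc3 and -0.62 for Apoc2. It was -0.87 and -0.79 for Dgat2 probes 1 and 2, and -0.37 for Mttp probe 1. For all of these but Dgat2 probe 2 the arrays of the GK groups did not overlap. Their sign within the slide was therefore fixed and is no check on the slide. With the block, the lowest limma adjusted p among the members was 0.0903 between the GK groups and 0.0579 for GK-S-30 against Wistar. In the latter Apoc2 stood at -1.16 and the Dgat2 probes at -1.50, -1.38 and -1.29. Apobec1 did not keep its sign, its difference from Wistar being 0.16 ± 0.27 (SE) with the block. Dgat1 minus Dgat2 was higher by 0.73 in GK-S-30 within the slide. With each array scaled to its 75th percentile in place of quantile normalization, the Apoc3 probes alone passed between the GK groups, and Apoc2 and Dgat2 probes 1 and 2 had limma adjusted p of 0.0584, 0.0576 and 0.0546. The differences themselves stayed near their size: over all alternatives other than arrays left out in turn, Apoc2 probe 1 ran from -0.69 to -0.57 and Dgat2 probe 1 from -0.87 to -0.54 between the GK groups.

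**Figure D4:**
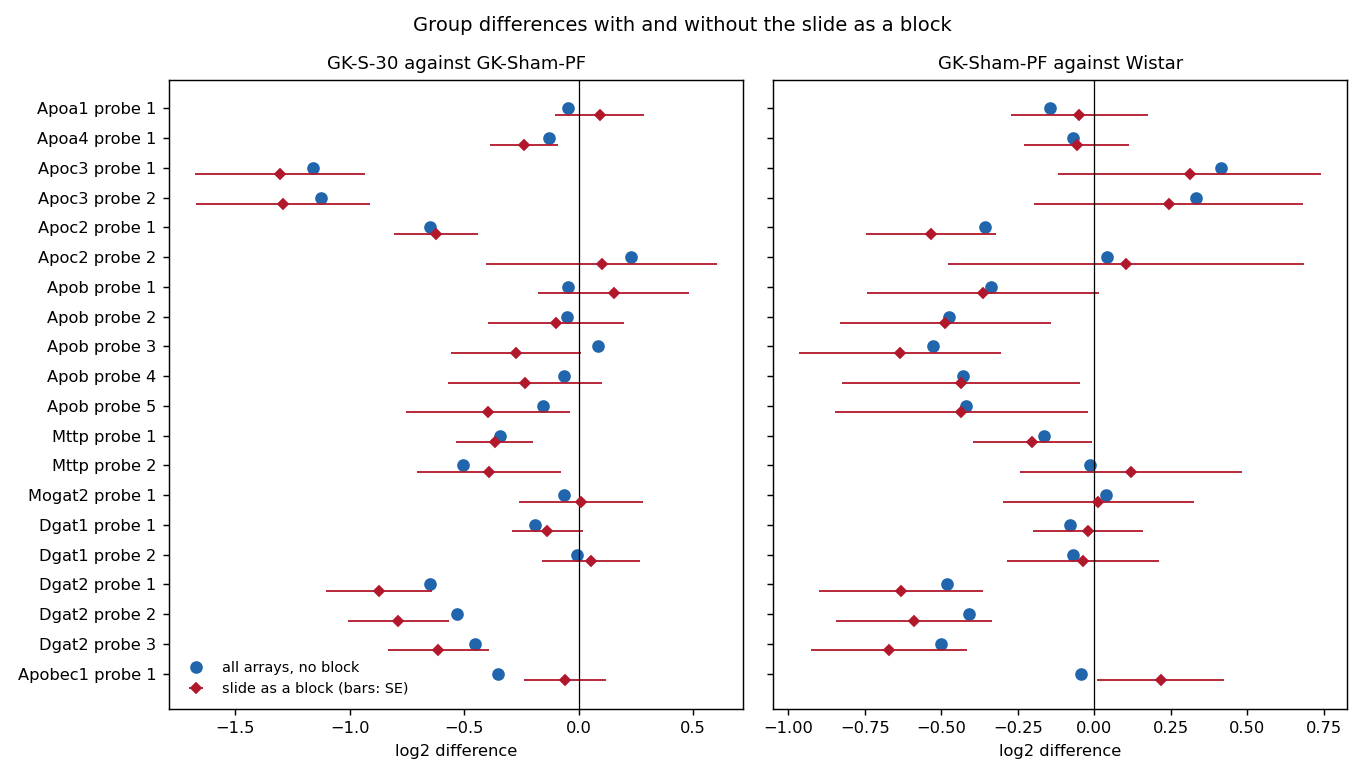
Log2 difference of each member probe with and without the slide as a fixed block, for the GK groups against each other and for GK-Sham-PF against Wistar, with bars for the SE of the values with the block. The Apoc3, Apoc2 probe 1, Dgat2 and Mttp probe 1 differences between the GK groups lie below 0 with the block. For Apoc3, Apoc2 probe 1, Dgat2 probe 1 and Mttp probe 1 this sign was fixed, since the arrays of the GK groups did not overlap.

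Other genes of the pathway were counted from 7 lists, by the brightest tested probe of each of 81 genes. Between the GK groups GK-S-30 was above in 6 and below in 2, between GK-Sham-PF and Wistar 2 were higher and 4 lower, and between GK-S-30 and Wistar 13 were higher and 19 lower. Of all tested probes 6.7%, 7.83% and 22.8% were called in the same order, so that the counts of 8 and 6 of 81 were near the background, and 32 of 81 lay above it. The lists were chosen with earlier results of these data known and take the brightest probe of each gene. The background takes every tested probe, dim ones included, so the shares are not strictly alike and their difference was not tested. The median log2 difference of the 81 was -0.02, -0.00 and 0.04. Apoh, which entered the test only through GK-S-30, is among the genes counted higher in each comparison.

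Of the genes of triglyceride synthesis other than the members, some were higher after RYGB where Dgat2 was lower. Of 16 tested, 4 were higher in GK-S-30 than after the sham operation and none was lower, beside 3.9% higher and 2.8% lower of all tested probes. Acsl3, which activates long fatty acids to acyl-CoA, ran from 11.37 to 11.88 in GK-S-30 and from 10.11 to 10.71 in GK-Sham-PF, a log2 difference of 1.08 (limma adjusted p = 0.00197). Acsl1, of the same family, was higher by 0.71 (0.00151), and Lpin1, a phosphatidate phosphatase, by 0.65 (0.00417), and for all of these the GK groups did not overlap. Acsl3 and Acsl1 stayed past the threshold with the slide as a block, at 1.43 and 0.88 (limma adjusted p = 0.0269 and 0.0323). Against Wistar 6 of the 16 were higher and 1 lower, beside 10.9% and 11.8% of all tested probes, a background that holds for each list against Wistar, Lpin1 by 0.75, Acsl3 by 0.80 and Acsl1 by 0.52. Between GK-Sham-PF and Wistar none of the 16 passed.

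Among 9 other apolipoprotein genes, Apom, a lipocalin carried on HDL, was lower in GK-Sham-PF than in Wistar (-0.59, limma adjusted p = 0.00451) and in GK-S-30 (-0.84, 0.000107). Apoa2 was lower in GK-Sham-PF than in Wistar by -0.92 (0.00819), and Apoc1, a neighbour of Apoc2, was lower in GK-S-30 than in Wistar by -0.78 (0.00132). Apoh, a plasma glycoprotein, was not well above background on any Wistar array and on 2 of 5 GK-Sham-PF arrays, and was on all GK-S-30 arrays. Its level in GK-S-30 was at least 2.27-fold that in Wistar, taking the lowest signal well above background on each array as the floor. Apoh entered the test only through GK-S-30, where it was high, so its calls add no support to these differences. In all, GK-S-30 had 2 of the 9 above Wistar, Apoh among them, and 4 below. Between the GK groups no gene of this list but Apoh was called.

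Of 18 genes of export from the endoplasmic reticulum, 1 passed between the GK groups: Bet1, a SNARE of vesicle transport, at 9.48 to 9.74 in GK-S-30 and 9.97 to 10.23 in GK-Sham-PF (-0.50, limma adjusted p = 0.00298). Against Wistar 2 were higher and 3 lower, among them Bet1 (-0.71), Tm6sf2 (-0.36) and Sar1a, a small GTPase of the coat, which was higher by 0.30. Of 10 lipid droplet genes, none passed between the GK groups, and GK-S-30 was below Wistar in 3: Fitm2 (-0.71), Cidec (-0.95) and Cideb (-0.31). Cidea was higher in GK-Sham-PF than in Wistar by 0.77 (limma adjusted p = 0.0105).

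Scarb1, a receptor for HDL that takes up cholesteryl ester, had the largest fall among these lists. It was 11.85 to 12.57 in Wistar, 10.75 to 11.87 in GK-Sham-PF and 10.36 to 11.03 in GK-S-30, so that only Wistar and GK-S-30 did not overlap. It stood in GK-S-30 at 30.8% of Wistar (-1.70, limma adjusted p = 3.18e-05), and in GK-Sham-PF the log2 difference from Wistar was -1.12 (0.00239). Pltp and Soat1 were higher in GK-S-30 than in Wistar, by 0.59 and 0.64, with Soat1 well above background on 4 of 5 Wistar arrays. The 5 genes listed for RNA editing took in relatives of Apobec1 as well as its cofactors. Of these A1cf, a cofactor of APOBEC1, was lower in GK-S-30 than in Wistar by -0.67 (limma adjusted p = 0.00247). Apobec2, listed as a relative and not as a cofactor, was higher in GK-S-30 than in Wistar by 0.99 and than in GK-Sham-PF by 0.74. Of 17 transcription factors known for these genes, Creb3l3 alone passed between the GK groups (-0.44, limma adjusted p = 0.0422), Srebf1 alone between GK-Sham-PF and Wistar (-0.65, 0.0312), and 5 were lower and none higher in GK-S-30 than in Wistar, among them Ppara (-0.77), Nr1h3 (-0.57) and Mlxipl (-0.77). With the slide as a block 2, 0 and 1 of the 81 genes passed in the 3 comparisons.

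**Figure D5:**
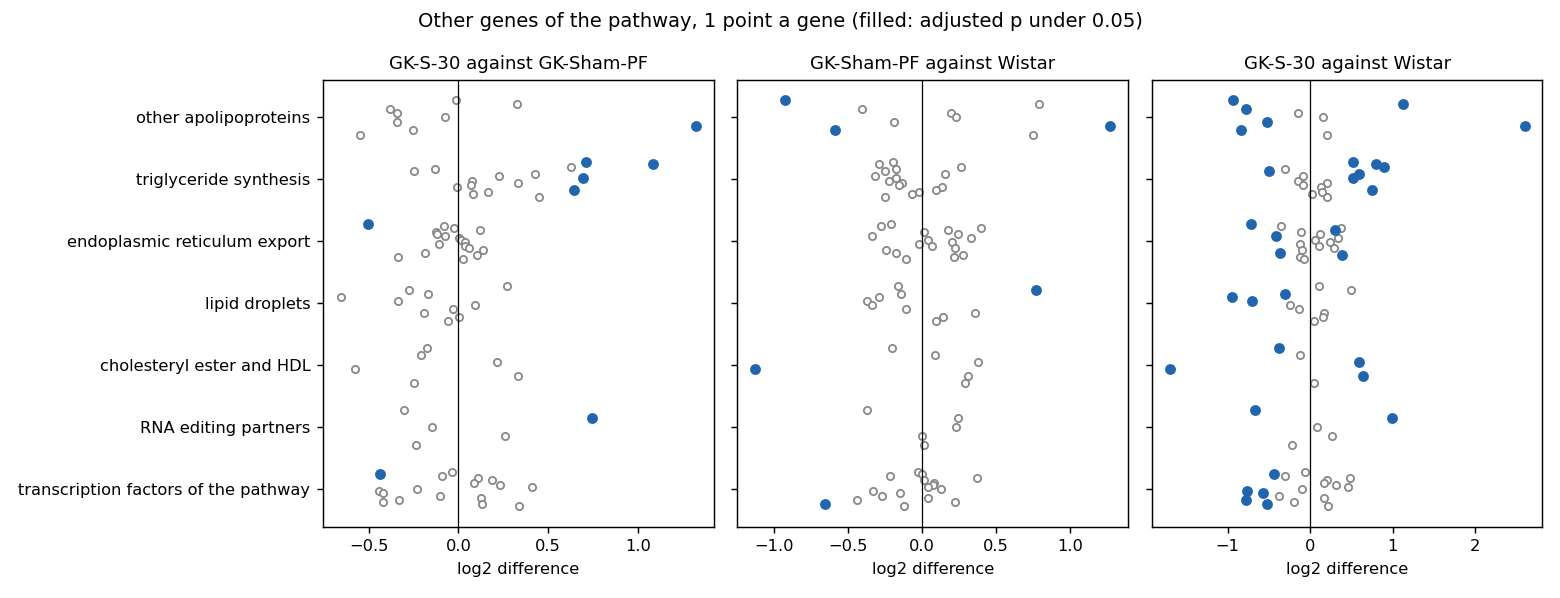
Log2 difference of each tested gene of the 7 pathway lists in the 3 comparisons, by its brightest tested probe, with filled points for those that passed the threshold. The point furthest to the right against Wistar is Apoh, whose Wistar arrays were not well above background. In triglyceride synthesis the 4 filled points between the GK groups lie above 0, and among the transcription factors the 5 filled points between GK-S-30 and Wistar lie below 0.

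The 250 bases before the start site were in the RefSeq table for 3 of the 10 members, Apoa4, Apoc2 and Apobec1. The Apoa4 and Apoc2 stretches are shown because the former was not called and the latter was, in capitals where a searched motif lies. The windows are chr8:55435529-55435778 on the plus strand and chr1:88462366-88462615 on the minus strand of GRCr8.
Apoa4: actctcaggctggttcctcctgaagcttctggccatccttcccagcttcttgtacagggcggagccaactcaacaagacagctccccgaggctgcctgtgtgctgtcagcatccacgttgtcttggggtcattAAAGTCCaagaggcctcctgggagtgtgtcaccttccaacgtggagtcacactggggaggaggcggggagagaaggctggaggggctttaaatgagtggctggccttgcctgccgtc
Apoc2: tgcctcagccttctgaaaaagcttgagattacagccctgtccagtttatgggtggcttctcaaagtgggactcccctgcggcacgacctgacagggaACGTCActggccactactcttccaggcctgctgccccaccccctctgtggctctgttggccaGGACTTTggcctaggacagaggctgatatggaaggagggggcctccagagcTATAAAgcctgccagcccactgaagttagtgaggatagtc

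Both strands were searched for TATAAA (the TATA box), for AAAGTCC (the core of an HNF4 site), for AGGTCA (a nuclear receptor site) and for TGACGT (the core of a CREB site). Apoc2 held TATAAA 40 bases before the start, AAAGTCC on the other strand at 91 and TGACGT on the other strand at 153, and Apoa4 held AAAGTCC at 117. Apobec1 held none of them, and none of the 3 held AGGTCA. Of 33469 promoters of the same length, 12.9% held TATAAA, 3.99% AAAGTCC, 14.1% AGGTCA and 6.95% TGACGT. The motif AAAGTCC was chosen after the sequences were seen, and a match of letters is a description only.

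The genes whose pattern over the 15 arrays lay nearest to the 3 members with the smallest adjusted p were found among 13037 named genes. For Dgat2 they were Ap1ar (Pearson r = 0.947), Pear1 (0.943) and LOC501194 (0.943), for Apoc2 Cfhr4 (0.940), Pex10 (0.934) and Nqo2 (0.922), and for Mttp Aldh8a1 (0.908), Cyp2c79 (0.900) and Acaa2 (0.900). With group means taken away the nearest were Dnajb3 (0.854), Tmem82 (0.847) and Itpk1 (0.835) for Dgat2, Kcne1 (0.920), Rem2 (0.907) and Trps1 (0.904) for Apoc2, and Grik3 (0.896), Gstm3 (0.858) and Nrgn (0.853) for Mttp. No name was shared between these lists. The 15 arrays share slides and groups, and the values are the highest of many and describe likeness only.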

How the data were processed

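RNA of 15 rat intestinal samples, 5 per group, was hybridised to 1-colour Agilent arrays. The authors deposited the scanner output of each array, with a background-subtracted, processed signal intensity for each of 45018 spots (Agilent Feature Extraction 10.7.3.1 per the file headers, 10.7 in the submitters' processing notes, rn4 annotation), and a table of quantile-normalized log2 values. In that table the authors' log2 values had the same median on every array and followed log2 of the processed signal (r over 0.999), so their scale and direction were clear from the scanner values, and they served as an alternative.

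From the scanner files, control and outlier spots were left out, repeat spots were averaged per probe, and the log2 processed signal was quantile-normalized as the study's methods state. Probes entered the test if some group had all 5 of its arrays marked well above background. One coefficient per group was fitted to all 15 arrays with limma (version 3.58.1, under R 4.3.3, with data.table at 1.17.8), and p-values were adjusted by Benjamini-Hochberg over all 27892 tested probes at 0.05. The script was tested on simulated data. Pairs of members were compared within arrays by exact two-sided permutation tests, adjusted over 9 tests. Figures used python 3.11.15 and matplotlib 3.10.9. The number of arrays limits the precision, and separate samples are assumed to be separate rats, so p-values measure the spread between these samples.

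The members, gene lists and markers were chosen with earlier results of these data known. Every member probe is named, and of each pathway list up to 3 genes with the smallest adjusted p under 0.05 in each comparison. Of the markers, 9 lists were used. Besides the smooth muscle, fibroblast and epithelial lists, GK-S-30 against GK-Sham-PF called 0 higher and 2 lower of 9 immune genes, 1 higher of 5 goblet, 2 higher of 7 enteroendocrine, 1 higher of 3 Paneth and 1 higher of 6 hepatocyte genes, and 1 lower of 6 pancreatic acinar genes. Of all tested probes 3.9% were higher and 2.8% lower in this comparison. The hepatocyte gene called was Apoh, which entered the test only through GK-S-30. GK-S-30 against Wistar called 2 higher and 5 lower of the immune genes, and 2 higher and 2 lower of both the hepatocyte and the acinar genes. It called 3 goblet, 1 enteroendocrine, 1 Paneth, 6 smooth muscle and 4 fibroblast genes, all higher. The share over all tested probes there was 10.9% higher and 11.8% lower. Acta2 was not found by name. Of the probes outside the controls, 22503 were named in the files and 17541 had a symbol through RefSeq (GRCr8) accessions.

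Alternatives were 75th percentile scaling, normexp background correction, the authors' values, other filters, outlier spots kept, the slide as a fixed or random block, a replicate block, only the groups compared, the methods' one-way model with Tukey's correction, and arrays left out. Replicate numbers are shared between groups, but same-numbered arrays did not deviate together (correlations of deviations from group means -0.28 to 0.19, 15 pairs), so the numbers were not used as pairs. No 2 arrays held identical values.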

Additional observations from a re-analysis of the deposited data

Results flagged for a closer look

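Levels of the members and named pathway genes, and the within-array pairs, were looked at in 141 groups of 5 arrays. A single array far from the rest was sought, with a gap to its nearest neighbour above 0.71 of the range. Of the 141, 15 stood out, where chance gives about 1 in 20 for independent groups, which these were not. Wistar replicate 3, a dim array, accounted for 4: Apob probe 1 at 15.30 (nearest 15.94), Mogat2 at 11.01 (11.63), Dgat1 probe 2 at 13.43 (13.95) and Apoc2 probe 2 at 5.12 (4.05). GK-Sham-PF replicate 4 was low in Apobec1 at 12.37 (12.92) and Dgat1 probe 1 at 15.88 (16.10). GK-Sham-PF replicate 5, the other dim array, was low in Pltp at 8.29 (9.02) and Mlxipl at 9.86 (10.73) and high in Fitm2 at 10.59 (10.13). Wistar replicate 1 was high in Fitm2 at 10.85 (10.51) and low in A1cf at 5.67 (6.04). Of GK-S-30, replicate 1 was high in Acsl3 at 11.88 (11.49), replicate 2 low in Dgat2 probe 3 at 9.10 (9.46), replicate 3 low in Apoc2 probe 2 at 4.31 (4.43) and replicate 4 high in Mlxipl at 10.77 (10.08). GK-S-30 replicate 1, lowest of its group in Apoc3 probe 1 at 13.92 (nearest 14.70), did not exceed the limit there.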

How the results depend on the processing

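Precision was limited by 5 arrays per group and by slides that nearly coincide with the groups, and very bright probes such as Apoa4 were held near the top value by normalization. Member values were recomputed under each alternative, and apart from the arrays left out in turn and the values within slides, 795 kept direction and side of the threshold, 58 lost and 23 gained a call, and 24 changed sign. The cause of the changes was not tested.

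Counts of member probes between the GK groups (6 in the report) were 2 with 75th percentile scaling, 0 with the slide as a fixed block in limma (7 at an unadjusted p under 0.05) and 1 with Tukey's correction adjusted over all probes. For GK-Sham-PF against Wistar (2) they were 1 with 75th percentile scaling, the authors' values, outlier spots kept, no filter on dim probes or the replicate block, 0 with the slide block (4 unadjusted in limma) or adjusted Tukey, and 4 with Tukey's p as given. For GK-S-30 against Wistar (9) they were 0 with the slide block (5 unadjusted in limma) and 5 with the replicate block. Left out together, an alternative chosen after seeing the data, GK-Sham-PF replicate 4 and GK-S-30 replicate 1 gave 1 for GK-Sham-PF against Wistar. With arrays left out in turn the counts were 4 (without GK-Sham-PF replicate 1) to 7 (without Wistar replicate 3), 0 to 3 and 5 (without Wistar replicate 5 or GK-S-30 replicate 5) to 11.

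Over all tested probes the counts were 1869, 2184 and 6352 in the report, 382, 414 and 454 with the slide block, and 763, 1384 and 4168 with adjusted Tukey. Tukey's p as given called 3864 between the GK groups and 3775 between GK-Sham-PF and Wistar. Only probes with a symbol gave 1342 for GK-Sham-PF against Wistar and 4101 for GK-S-30 against Wistar. Between the GK groups the replicate block gave 1211 and the pair of arrays left out 1198. Arrays left out in turn gave 1197 to 2379, 1689 to 2416 and 5270 to 7040. Of the 81 pathway genes (8, 6 and 32 called), the slide block called 2, 0 and 1, adjusted Tukey 4, 2 and 19, the replicate block 4 between the GK groups, and Tukey as given 12 between GK-Sham-PF and Wistar, with 6 to 8, 4 to 12 and 24 to 34 when arrays were left out.

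The within-array pairs lost their calls, in the order Dgat1 minus Dgat2 between the GK groups and for GK-S-30 against Wistar and Apoc2 minus Apoc3 for GK-Sham-PF against Wistar, with normexp (0.34, 0.80 and -0.73), the authors' values (0.46, 0.86 and -0.77), the dim arrays left out (0.36, 0.85 and -0.79) and both other arrays left out (0.49, 0.87 and -0.84). Leaving out arrays in turn gave 0.36 to 0.54, 0.79 to 0.95 and -0.88 to -0.65, with 0.32 to 0.50 for Dgat1 minus Dgat2 in GK-Sham-PF against Wistar and -0.55 to 0.0015 for Apoc2 minus Apoc3 in GK-S-30 against Wistar. Within the slide that holds both GK groups Dgat1 minus Dgat2 was 0.73 and Apoa4 minus Apoa1 -0.33. Apoa4 minus Apoa1, in which Apoa4 was held at the top value, changed sign, at no time past the threshold, to 0.011 (between the GK groups) and 0.11 (GK-S-30 against Wistar) with normexp, and against Wistar to 0.0023 with the authors' values, 0.0096 with outlier spots kept, 0.043 with the dim arrays left out, and -0.060 to 0.043 with arrays left out in turn.

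Of single probes, only Apobec1 in GK-S-30 against Wistar changed sign from a call, to 0.16 with the slide block, the others being small differences that were not called. With 75th percentile scaling these were Apob probe 1 (0.041), probe 2 (0.024) and probe 4 (0.00025), Mogat2 (0.00071) and Dgat1 probe 2 (0.075) between the GK groups, and Mogat2 (0.060) and Dgat1 probe 2 (0.013) against Wistar. With the slide block they were Apoa1 (0.092), Apob probe 1 (0.15) and probe 3 (-0.27), Mogat2 (0.0089) and Dgat1 probe 2 (0.055) between the GK groups, Mttp probe 2 (0.12) and Apobec1 (0.22) in GK-Sham-PF against Wistar, and Apoa1 (0.043), Mogat2 (0.021) and Dgat1 probe 2 (0.018) in GK-S-30 against Wistar. Without the dim arrays Mogat2 was -0.080 in GK-Sham-PF against Wistar. Without the other pair of arrays Apob probes 1, 2 and 4 were 0.074, 0.090 and 0.089 between the GK groups, Apobec1 0.081 in GK-Sham-PF against Wistar and Mogat2 0.0074 in GK-S-30 against Wistar. With arrays left out in turn, values between the GK groups ran from -0.12 to 0.019 for Apoa1, -0.22 to 0.084, -0.15 to 0.14, -0.030 to 0.26, -0.20 to 0.14 and -0.27 to 0.051 for Apob probes 1 to 5, -0.069 to 0.022 for Dgat1 probe 2 and -0.13 to 0.028 for Mogat2. In GK-Sham-PF against Wistar they ran from -0.097 to 0.081 for Apobec1, -0.22 to 0.28 for Apoc2 probe 2, -0.11 to 0.10 for Mogat2 and -0.092 to 0.053 for Mttp probe 2, and in GK-S-30 against Wistar from -0.17 to 0.037 for Mogat2.

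The replicate block, which changed the counts as given, was no pairing: 1 of 15 arrays was closest to its own number in another group.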
